A study of Mus musculus with 12 samples.

Results

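The genes examined were 8 transcription factors that define the hepatocyte: Hnf4a, Foxa1, Foxa2, Foxa3, Prox1, Onecut1, Nr5a2 and Nr1h4. Binding of the glucocorticoid receptor (GR) at them was read from chromatin immunoprecipitation and sequencing (ChIP-seq) with a rabbit anti-GR antibody in BWTG3 cells, a single mouse hepatoma line. A peak belonged to one of these genes when its centre lay inside the gene's mm10 span or within 50 kb of it. This gave 139 of 109273 peaks, which merged into 54 of 47493 regions across the 11 peak lists. All cells were kept for 24 h without serum. The TNFDEX group (3 libraries) received 1000 U/ml of the inflammatory cytokine tumour necrosis factor (TNF) and, 1 h later, 1 µM dexamethasone (Dex), a synthetic glucocorticoid. The DEX group (3 libraries) received Dex alone, the TNF group (2 libraries) received TNF alone, and the title of the NI group (3 libraries) names neither agent. For the 3 treated groups, stimulation lasted 3 h in total. The input sample was not analysed here. ChIP-seq of GR measures no expression, so the cells' hepatocyte character was not checked against marker expression, and a peak near a gene is not evidence that the gene was expressed or regulated.

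GR is a nuclear receptor that moves to the nucleus when it binds a glucocorticoid and there occupies DNA, typically at palindromic glucocorticoid response elements or at sites held open by other factors. Hepatocyte identity rests on a small circuit of transcription factors that bind one another's enhancers. HNF4A is a nuclear receptor that activates a broad programme of liver genes, the 3 FOXA proteins are pioneer factors that open closed chromatin, and PROX1 and ONECUT1 (HNF6) are homeodomain proteins of liver development. NR5A2 (LRH-1) and NR1H4 (FXR) are nuclear receptors that govern bile acid and cholesterol metabolism.

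Of the 26 regions called in more than 1 library, 2 lay within 1 kb of a listed start site, at Foxa2 and Nr5a2. The promoters concerned are shown to place those regions against the start. RefSeq (GRCm38.p6) listed 13 promoters for the 8 genes, each 250 bases before to 50 bases after a start. In the first sequence, from chr2:148046920-148047219 on the minus strand, the capitals mark the 158 bases that lay inside a GR region (148047062 to 148047234) called in TNFDEX replicate 1 and TNF replicate 1. In the second, from chr1:136960399-136960698 on the minus strand, the capitals mark an AGAACA element 29 bases before the start. The nearest GR region to it lay 0.397 kb upstream of the start, outside the printed window.
Foxa2 promoter: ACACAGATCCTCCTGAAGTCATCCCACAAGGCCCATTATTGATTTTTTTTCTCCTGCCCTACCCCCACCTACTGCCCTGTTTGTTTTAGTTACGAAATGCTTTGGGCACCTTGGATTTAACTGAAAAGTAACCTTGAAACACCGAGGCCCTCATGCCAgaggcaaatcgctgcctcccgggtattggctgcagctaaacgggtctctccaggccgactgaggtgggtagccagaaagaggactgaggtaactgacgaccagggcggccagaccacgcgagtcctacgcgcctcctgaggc
Nr5a2 promoter: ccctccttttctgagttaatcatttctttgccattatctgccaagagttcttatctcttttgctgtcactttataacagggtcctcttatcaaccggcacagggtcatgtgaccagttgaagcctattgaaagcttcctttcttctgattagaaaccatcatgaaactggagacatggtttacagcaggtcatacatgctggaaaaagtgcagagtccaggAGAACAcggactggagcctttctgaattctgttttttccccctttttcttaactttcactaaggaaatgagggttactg
The 6-base element TGTTCT, a single arm of the glucocorticoid response element, searched on both strands and so also read as AGAACA, was present in 2 of the 13 promoters (15.4%), both of Nr5a2, and in 3451 of all 21263 promoters (16.2%). The exact palindromic glucocorticoid response element, AGAACA and TGTTCT with 3 bases of any kind between them, was in 0 of the 13 and in 2 of the 21263. The capitals of the Foxa2 promoter held 0 such elements. These matches describe letters in the windows only.

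By group mean, more GR regions were called at the 8 genes in the groups with Dex than in those without it. The number called per library was 26, 17 and 20 in TNFDEX replicates 1 to 3 (21 ± 4.58, SD, n = 3), 15, 18 and 13 in DEX (15.3 ± 2.52, n = 3), 13 and 5 in TNF (9 ± 5.66, n = 2), and 4, 6 and 2 in NI (4 ± 2, n = 3). Every TNFDEX library exceeded every TNF and NI library, and DEX and TNF met at 13. The whole peak lists held 22590, 8641 and 14043 peaks in TNFDEX and 10480, 13021 and 12955 in DEX. They held 8943 and 4132 in TNF and 5442, 6502 and 2524 in NI. The counts at the 8 genes are not scaled to these totals, so they are not read as particular to these genes. A call in 2 or more libraries of the group was found for 17 regions in TNFDEX, 14 in DEX, 1 in TNF and 1 in NI. That rule asks for both libraries in TNF but for 2 of 3 in the other groups, so it is stricter for TNF. Of all 47493 regions that rule was met by 24% in TNFDEX, 19.6% in DEX, 1.95% in TNF and 4.23% in NI. All 8 genes had such a region in TNFDEX and 7 of the 8 in DEX, the exception being Onecut1, against 1 of 8 in TNF and 1 of 8 in NI. Over all 21887 protein-coding genes, not matched for length, the shares were 39.5% in TNFDEX, 36.5% in DEX, 6.08% in TNF and 14.9% in NI. In 28 of the 54 regions (51.9%) only 1 library held a peak, against 59.5% of all regions. Of these 28, 12 were in TNFDEX, 2 in DEX, 8 in TNF and 6 in NI, at normalized tag counts of 6.6 to 29.4.

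**Figure D1:**
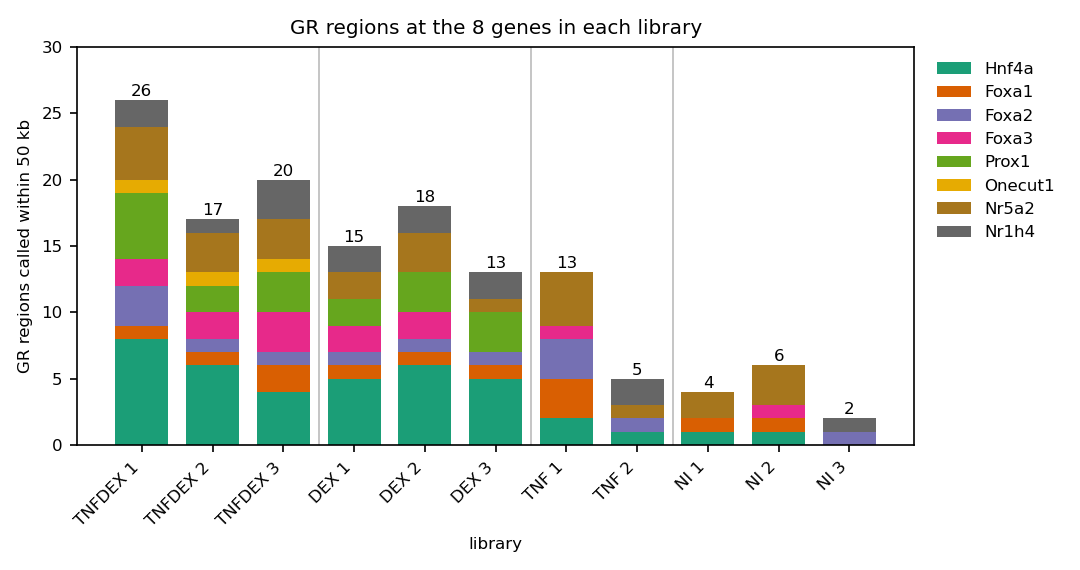
Number of GR regions called within 50 kb of the 8 genes (vertical axis) in each of the 11 libraries (horizontal axis), stacked by gene, with the total above each bar. TNFDEX libraries held 17 to 26 regions, DEX libraries 13 to 18, TNF libraries 5 and 13, and NI libraries 2 to 6, and Prox1 and Onecut1 appear only in bars with Dex.

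Whether a region was called was compared between the 6 libraries with Dex and the 5 without, by a two-sided Fisher's exact test adjusted by Benjamini-Hochberg over the 13526 regions that 3 or more libraries held. Of the 18 such regions at these genes, 10 passed at an adjusted p under 0.05, each with more calls with Dex, and 0 passed with fewer. Over all 13526 regions, 30.3% passed with more calls and 0.0591% with fewer. At least 1 passing region lay at 7 of the 8 genes, compared with 19.3% of all protein-coding genes. Genes were not matched for length, and the 8 were chosen with earlier results of these data known, so no enrichment is read from this. The pass at Foxa1 depended on how peaks were merged. The filter admits a region through the groups in which it was called, so these counts describe the regions and are no support for a difference. Of the 10, 5 were called in 6 of 6 Dex libraries and 0 of 5 others (p = 0.00216, adjusted p = 0.0122 by the exact test), a pattern seen in 17.8% of the tested regions. They were 3 regions of Hnf4a and 2 of Prox1. The other 5, at Foxa1, Foxa2, Foxa3, Nr5a2 and Nr1h4, each missed 1 Dex library or had 1 call without Dex, and passed narrowly (p = 0.0152, adjusted p = 0.04997, exact test). That adjusted value depends on how many other regions share the pattern, and most alternatives to the test took it above 0.05 (15 of 20 alternatives at Foxa2 and 16 of 20 at Nr5a2). With any 1 of the 11 libraries left out, 5 to 7 regions passed.

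**Figure D2:**
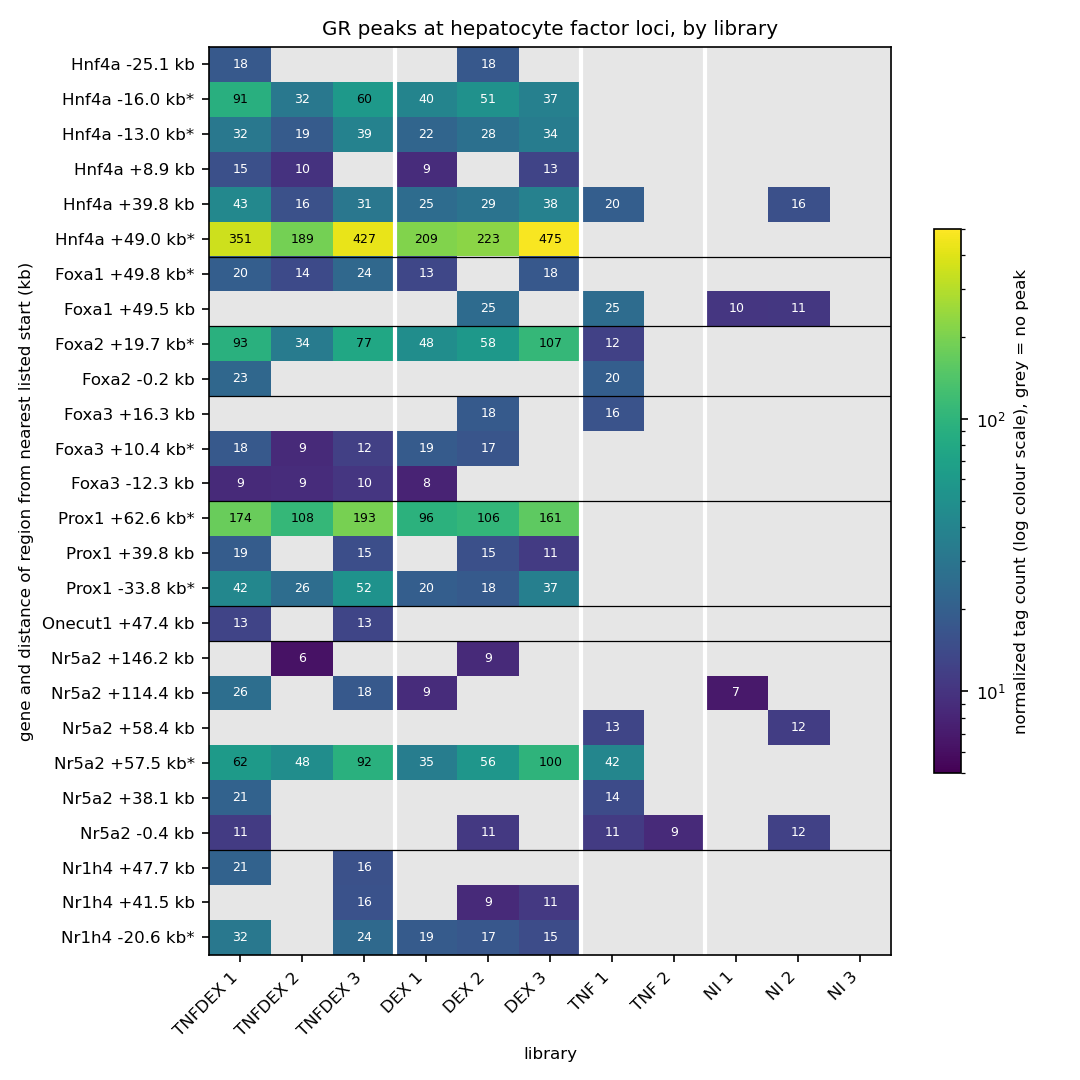
Normalized tag count (colour on a log scale and printed rounded in each cell, tags per 20000000) of the GR regions at the 8 genes that were called in more than 1 library, by region (rows, with the distance in kb from the nearest listed start site) and library (columns); grey cells had no called peak and an asterisk marks regions that passed the test of calls with Dex. The Hnf4a and Prox1 regions with an asterisk are filled in all 6 Dex columns and grey in the other 5.

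Hnf4a had the most GR regions of the 8 genes and the strongest one. It had 5 regions in TNFDEX and 5 in DEX that at least 2 libraries of the group shared. Among protein-coding genes, not matched for length although longer ones have wider windows, 1.55% had at least as many in DEX as Hnf4a. Its strongest region, at chr2 163596089 to 163596271, lay 23.2 kb beyond the 3′ end of the gene (66.1 kb long, plus strand) and 6.01 kb from Ttpal, so it is not assigned to Hnf4a by nearness. The normalized tag counts there, tags in the peak scaled by the authors to 20000000 per library, were 351.3, 189.3 and 427.2 in TNFDEX and 208.7, 222.8 and 475.2 in DEX, with no call in TNF or NI. The values of TNFDEX (mean 323 ± 122) and DEX (mean 302 ± 150) overlapped. Among the peaks of their own lists these ranked 43, 48 and 31 in TNFDEX and 56, 74 and 25 in DEX, and they stood 73.6 to 184 times over the input in the authors' values. This single region held 59.2% to 79.6% of the normalized tags called at the locus in each Dex library.

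Upstream of Hnf4a lay a pair of weaker Dex regions. The first, at 163490752 to 163490948, was 15.9 kb upstream of the span and 0.491 kb from R3hdml, and gave 91.2, 31.7 and 60.4 in TNFDEX and 40.2, 51.0 and 37.0 in DEX. The second, at 163493725 to 163493925, was 12.9 kb upstream, inside R3hdml, with 31.5, 18.8 and 38.6 in TNFDEX and 22.3, 27.5 and 34.5 in DEX. Neither had a call in TNF or NI, and in both the TNFDEX and DEX values overlapped. A region 13.9 kb downstream (163586853 to 163587045) was also called without Dex. It held 42.7, 15.6 and 31.2 in TNFDEX and 25.3, 29.1 and 37.5 in DEX, but also 19.8 in TNF replicate 1 and 15.5 in NI replicate 2, and its calls did not pass (adjusted p = 0.136, exact test). Inside the gene, 163515606 to 163515813 reached only 15.3 and 9.8 in TNFDEX replicates 1 and 2 and 8.9 and 12.9 in DEX replicates 1 and 3, with no other call (adjusted p = 0.136, exact test). The region 163481633 to 163481853, upstream, was called in TNFDEX replicate 1 at 18.2 and DEX replicate 2 at 17.8.

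**Figure D3:**
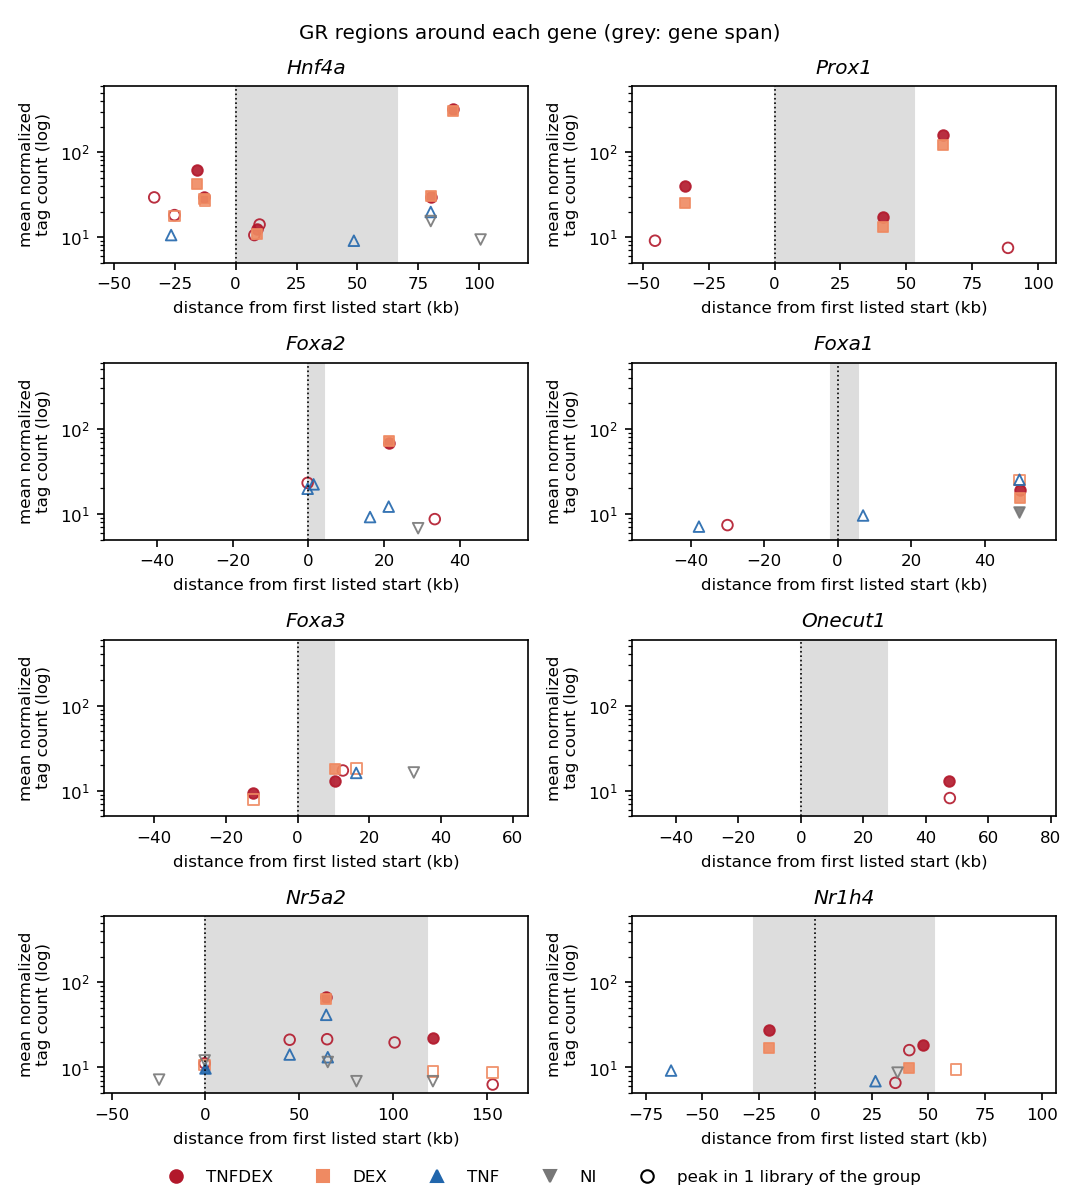
Mean normalized tag count (vertical axis, log scale) of each of the 54 GR regions over the libraries of a group that called it, against the distance from the gene's first listed start site (horizontal axis, kb), with 1 panel per gene, the gene span in grey and open symbols where 1 library of the group held the peak. The highest points are the Hnf4a region beyond the 3′ end, at 323 in TNFDEX and 302 in DEX, and then the Prox1 region beyond its 3′ end, at 158 in TNFDEX and 121 in DEX, and neither has a TNF or NI point.

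Among the 3 FoxA genes, Foxa2 had the strongest GR binding in both Dex groups. Foxa2, which is needed for liver and endoderm formation, had a strong region at chr2 148025604 to 148025839, 17.0 kb beyond its 3′ end. Its normalized tag counts were 93.3, 34.0 and 77.3 in TNFDEX (mean 68.2 ± 30.7), 48.1, 58.1 and 107.3 in DEX (mean 71.2 ± 31.7) and 12.2 in TNF replicate 1, with no call in TNF replicate 2 or in NI. The TNF value was below every Dex library. With TNF replicate 2 left out, the region could be set against TNF replicate 1 in limma, assuming that this lone sample varies like the others. There it was 1.83 higher in TNFDEX on the log2 scale (SE 0.34, adjusted p = 0.00258 by limma over 1798 regions, whose median was 0.52 higher before scaling). Of the 1798 regions 16.5% passed as higher and 13.1% as lower in that fit. The other 2 regions at these genes that it included did not pass, with 0.12 at the internal Nr5a2 region (adjusted p = 0.864 by limma) and −0.05 at the Hnf4a region 13.9 kb downstream (adjusted p = 0.92 by limma). The promoter region printed above was weak, with 23.2 in TNFDEX replicate 1 and 19.8 in TNF replicate 1.

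Foxa3 showed weak binding at its 3′ end. The region 19012989 to 19013242 on chromosome 7 ended 0.041 kb from the gene and gave 18.2, 8.6 and 11.9 in TNFDEX and 18.8 and 16.8 in DEX replicates 1 and 2, with no call elsewhere. A second, inside the neighbouring gene Sympk at 19035757 to 19035976, gave 8.7, 9.0 and 10.3 in TNFDEX and 7.9 in DEX replicate 1 (adjusted p = 0.136, exact test). By the DEX mean the strongest Foxa3 region was 19007114 to 19007313, 0.351 kb from Irf2bp1, where only DEX replicate 2 (18.4) and TNF replicate 1 (16.2) held a peak.

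At Foxa1 the calls alternated between 2 regions 33 bp apart, 44 kb beyond the 3′ end of the gene on chromosome 12. The region 57496231 to 57496463 was called in TNFDEX at 19.9, 14.1 and 23.8 and in DEX replicates 1 and 3 at 13.4 and 17.7. Its neighbour, 57496497 to 57496719, was called in DEX replicate 2 at 25.0, in TNF replicate 1 at 25.3, and in NI replicates 1 and 2 at 10.4 and 10.6. No library held both, and per the file headers peaks of 1 library had to lie at least 278 to 354 bp apart, depending on the library, while these centres were 261 bp apart. With centres within 300 bp merged, the joined region was called in 6 of 6 Dex libraries and 3 of 5 others (adjusted p = 0.284, exact test), so the pass at Foxa1 depended on keeping them apart.

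Prox1 had called peaks only in the libraries with Dex. No peak of any TNF or NI library fell within 50 kb of it, which leaves the level there unknown and not 0. PROX1 restrains HNF4A and NR5A2 activity in liver as a corepressor. The region 190106810 to 190106996 on chromosome 1, 11 kb beyond its 3′ end, gave 173.8, 107.9 and 193.2 in TNFDEX (mean 158 ± 44.7) and 96.2, 106.0 and 160.7 in DEX (mean 121 ± 34.8). A weaker region 33.7 kb upstream, 190204561 to 190204758, gave 41.9, 25.8 and 52.2 in TNFDEX (mean 40.0 ± 13.3) and 19.8, 18.4 and 36.6 in DEX (mean 24.9 ± 10.1). At both, the TNFDEX and DEX values overlapped. A region inside the gene (190129577 to 190129846) was called at 19.1 and 15.2 in TNFDEX replicates 1 and 3 and at 15.3 and 11.2 in DEX replicates 2 and 3 (adjusted p = 0.136, exact test).

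Onecut1 had the least binding of the 8. Its region 74909262 to 74909444 on chromosome 9, 19.6 kb beyond the 3′ end, was called in TNFDEX replicates 1 and 3 at 12.9 and 13.2, and a neighbouring one (74909538 to 74909698) in TNFDEX replicate 2 at 8.2. With centres within 300 bp merged, they became 1 region called in all 3 TNFDEX libraries (adjusted p = 0.284 for calls with Dex, exact test). No DEX, TNF or NI library had a peak within 50 kb. In their own lists these 3 peaks stood within the top 56.6% to 69.2% by normalized tag count. The level in the libraries without a call is unknown.

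Nr5a2 combined a strong internal region with a weak one by its start. The region 136895986 to 136896199 on chromosome 1, inside the gene and 57.5 kb from the nearest listed start, gave 61.8, 48.1 and 92.5 in TNFDEX (mean 67.5 ± 22.7), 35.2, 56.1 and 99.9 in DEX (mean 63.7 ± 33.0) and 41.6 in TNF replicate 1, with no call in TNF replicate 2 or NI. The TNF value was above DEX replicate 1, unlike at Foxa2. The start region 136960731 to 136960959 was called in TNFDEX replicate 1 at 11.2, DEX replicate 2 at 10.7, both TNF libraries at 11.2 and 8.7, and NI replicate 2 at 12.1 (adjusted p = 0.675, exact test). It was the only region of the 54 called in both TNF libraries. Another region, 3.12 kb beyond the 3′ end (136839079 to 136839441), was called in TNFDEX replicates 1 and 3 at 26.5 and 18.1, DEX replicate 1 at 8.9 and NI replicate 1 at 6.9 (adjusted p = 0.672, exact test).

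Nr1h4, the bile acid receptor, had a modest region inside the gene on chromosome 10, 89527128 to 89527341. It gave 31.5 and 24.3 in TNFDEX replicates 1 and 3 (mean 27.9 ± 5.09, n = 2) and 18.8, 17.3 and 14.6 in DEX (mean 16.9 ± 2.13, n = 3), and had no call in TNFDEX replicate 2, TNF or NI. Both called TNFDEX values exceeded all DEX values, but the uncalled library has no value and the signal test did not include the region. A second internal region (89465048 to 89465240) was called at 16.0 in TNFDEX replicate 3 and at 8.7 and 10.8 in DEX replicates 2 and 3, and another (89458823 to 89459020) at 21.2 and 15.6 in TNFDEX replicates 1 and 3.

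Of the 10 regions that passed with Dex, 2 were inside a gene of the 8, 3 upstream and 5 downstream. The distance to the gene's own nearest listed start was 10.4 to 62.6 kb. To the nearest listed start of any protein-coding gene it was 1.47 to 62.6 kb (median 27.2 kb), the closest being the first of the pair upstream of Hnf4a, near R3hdml. Over all passing regions that had a value the median was 57.2 kb. Within 1 kb of a listed start were 0 of the 10 and 2.21% of all, and nothing is read from that difference. The 50 kb limit bounds these distances at the 8 genes, and the list of starts is incomplete. Their median of the DEX mean was 35.4, against 23.1 over all 4093 passing regions. The regions named next were all called in more than 1 library. Nearest inside the limit were the Foxa1 pair and an Nr5a2 region with 2 calls, 35.1 kb away, at 6.3 to 8.7. Just outside it lay an Nr5a2 region, 137020632 to 137020810, 60.3 kb upstream, called in 3 of 3 TNFDEX and 3 of 3 DEX libraries at 26.8 to 81.4 and in no TNF or NI library. The next, 62.0 kb from Foxa1 at 57478467 to 57478684, was called in 1 TNFDEX, 3 DEX, 1 TNF and 2 NI libraries at 8.4 to 18.7.

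The signal of TNFDEX was set against that of DEX at the 4023 regions called in all libraries of both groups. Dex came 1 h after TNF within 3 h of stimulation in total, so TNFDEX cells had Dex for a shorter time than DEX cells. An effect of TNF and that shorter exposure cannot be told apart here. Of these, 8 lay at the genes described here, and 0 of the 8 passed limma's test on log2 normalized tag count at an adjusted p under 0.05, with 0 at an unadjusted p under 0.05. Over all 4023 regions, 0.0497% passed as higher in TNFDEX and 0% as lower, and 6.71% had an unadjusted p under 0.05. The largest difference was at the upstream Prox1 region, 0.54 higher in TNFDEX (95% interval −0.09 to 1.18, adjusted p = 0.767 by limma). The downstream Prox1 region differed by 0.23 (−0.24 to 0.70) and the Nr5a2 region by 0.01 (−0.66 to 0.68). At Foxa2 the difference was −0.25 (−0.75 to 0.25). The Hnf4a regions differed by 0.25 (−0.36 to 0.86) at 15.9 kb upstream, −0.12 (−0.69 to 0.46) at 12.9 kb upstream, −0.29 (−0.82 to 0.24) at 13.9 kb downstream and −0.03 (−0.59 to 0.52) at the strongest. All 8 intervals included 0, and they are too wide to show equal binding. The groups' values failed to overlap at 0 of the 8, against 2.71% of all 4023 regions. The median difference was −0.01 over the 8 and −0.02 over all. These values follow TMM scaling, before which TNFDEX was 0.14 higher over all regions. The sign of the difference was not stable at 3 of the Hnf4a regions or at Nr5a2. Scaled by library totals alone, the Hnf4a regions at 12.9 kb upstream and at the strongest site became 0.04 and 0.12.

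**Figure D4:**
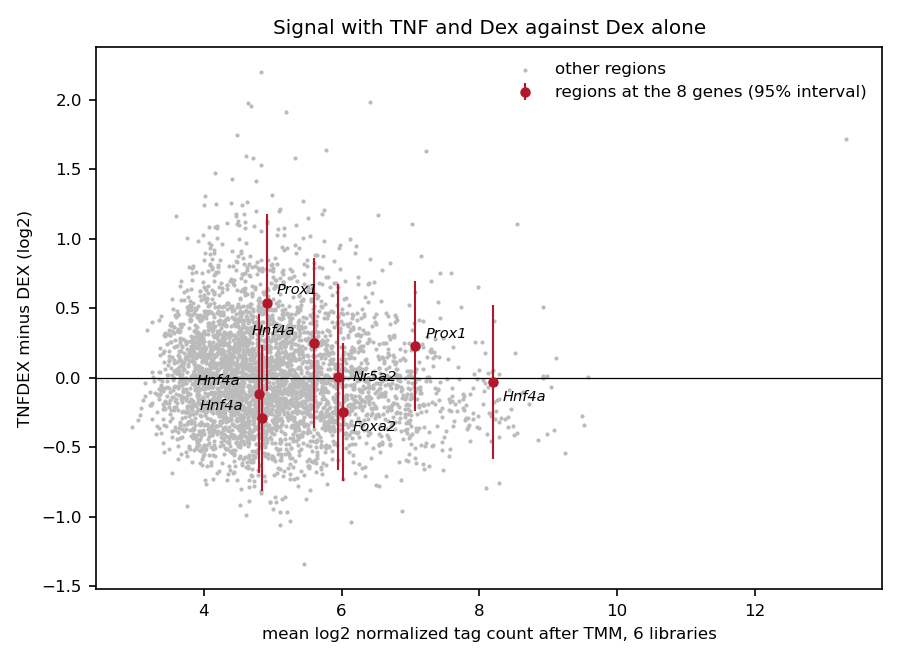
Difference in log2 normalized tag count between TNFDEX and DEX (vertical axis) against the mean over the 6 libraries (horizontal axis) for the 4023 regions called in all 6, with the 8 regions at these genes in red with 95% intervals. All 8 intervals include 0.

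The test of calls with TNF passed no region at these genes. Between the 5 libraries with TNF and the 6 without, 0 of the 18 tested regions passed (Fisher's exact test, 0 also at an unadjusted p under 0.05, smallest p = 0.242), against 0% of all regions at an adjusted p and 0.2% at an unadjusted p under 0.05. The smallest p that this exact test of 6 against 5 libraries can give is 0.00216. It needs calls in every library of 1 side and in none of the other. Over 13526 regions, that p passes after adjustment only if many regions reach it. Only 27 regions had an unadjusted p under 0.05, too few for any region to pass. The 0 passing at an adjusted p is therefore no evidence that TNF left the calls unchanged. The sides pool TNFDEX with TNF and DEX with NI. A region called in every Dex library and no other thus has equal call numbers on both sides by construction. A change that needs both agents would show in TNFDEX only, and this pooled test is weak for it. No region at the 8 genes was called in every library of both groups for DEX against NI, TNFDEX against TNF or TNF against NI, so these signal differences were not tested there. Limma tested 179, 508 and 152 regions elsewhere in these comparisons. For DEX against NI, 13.4% passed as higher, 2.79% as lower and 27.9% had an unadjusted p under 0.05. For TNFDEX against TNF the shares were 12%, 1.38% and 30.9%, and for TNF against NI all were 0%.

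Most of the other hepatocyte factors and target genes examined also had GR regions with Dex, and some had them without it. Of 20 further transcription factors, 14 had a region called in at least 2 TNFDEX libraries and 13 in DEX, against 2 in TNF and 2 in NI, and 11 had a region that passed with Dex. Over all protein-coding genes these shares were 39.5% in TNFDEX, 36.5% in DEX, 6.08% in TNF and 14.9% in NI, with 19.3% holding a region that passed. Zbtb20, a zinc finger repressor, had 8 regions called in at least 2 libraries of TNFDEX and 6 in DEX. Genes were not matched for length in these counts and shares, and longer ones have wider windows. The strongest region at Cebpb, a leucine zipper factor of the acute phase, averaged 29.1 ± 11.2 in TNFDEX and 38.7 ± 13.5 in DEX (n = 3 each). The strongest region at Ppara, a nuclear receptor of fatty acid oxidation, gave 280.8, 213.5 and 354 in TNFDEX (mean 283 ± 70.3) and 52.5, 76.5 and 128.4 in DEX (mean 85.8 ± 38.8), with no call in TNF or NI. Its groups did not overlap, while those of the other 8 factors whose strongest region was called in all 6 libraries did. Groups failed to overlap at 2.71% of all 4023 regions called in all 6 libraries. Among the 7 such regions at the target genes below, 0 failed to overlap. The Ppara region was 1.64 higher in TNFDEX on the log2 scale (SE 0.26), which missed the threshold (adjusted p = 0.0716 by limma). Not every strongest region was tied to Dex. That of Cebpa gave 32.2, 33.6 and 22.8 in DEX, 26.4 and 10.1 in TNF, and 19.3 and 36.7 in NI replicates 1 and 2 (adjusted p = 0.628 for calls with Dex, exact test). That of Hhex was also called without Dex, at 19.8 and 6.9 in TNF and 11.1 in NI replicate 2 (adjusted p = 0.281, exact test). Ppara, Cebpa, Cebpb, Hhex, Zbtb20, Abcb11 and Cyp7a1 were picked as examples with their values known. Of 20 hepatocyte genes known as targets of the 8 factors, 14 had a region in TNFDEX, 14 in DEX, 3 in TNF and 5 in NI, and 10 had one that passed. These are counts of genes and not of separate loci, since Apoa1 and Apoc3 shared their strongest region, as did Alb and Afp. Abcb11, the bile salt export pump, averaged 50.0 ± 22.6 in TNFDEX and 48.0 ± 14.8 in DEX, and Cyp7a1, the rate-limiting enzyme of bile acid synthesis, 38.7 ± 14.8 in TNFDEX and 39.4 ± 23.4 in DEX (n = 3 each).

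Depth ran from 39228805 to 51141996 tags per library. Peaks numbered 8641 to 22590 with Dex and 2524 to 8943 without it. Nuclear peaks took 0.847% to 2.91% of the tags of libraries with Dex and 0.106% to 0.722% of those without it, with no overlap. The mitochondrial normalized tag count split the libraries in a way the groups do not explain. It was 70983.1 to 108166 in 5 libraries (TNFDEX 2 and 3, DEX 3, TNF 2 and NI 3) and 1289.9 to 6953.2 in the other 6. Among the 5, libraries with Dex held 9 to 10 of the 10 passing regions and libraries without it 0. Among the 6, those with Dex held 9 to 10 and those without it 0 to 2. The 10 regions were chosen by their calls in these same libraries. These counts follow from that choice and are no test of whether the Dex difference holds apart from the split. The split was seen in the data and is not a labelled batch.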

How the data were processed

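GR ChIP-seq was analysed in 11 libraries of BWTG3 cells, grouped by sample title. In the submitters' processing notes the tools named were HOMER 4.6, Bowtie 1.0.0 and CASAVA 1.8, with the build mm10. Per the file headers, HOMER findPeaks called peaks for each library separately against 1 input, at a false discovery rate of 0.001, a Poisson p of 0.0001, and 4-fold enrichment over both the input and the local 10000 bp. The deposited signal is the authors' normalized tag count, scaled to 20000000 tags per library, and the deposited ratios are each peak's fold over the input and its surroundings. The deposited p-values, fractions and scores of the peaks were not used. Where a list holds no peak the level is unknown.

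Peaks sharing at least 1 bp were merged into regions. Calls were tested by Fisher's exact test over regions called in at least 3 libraries, and signal by limma 3.58.1 in R 4.3.3 on log2(normalized tag count), with TMM factors, at regions called in every library compared. Benjamini-Hochberg adjustment ran over all tested regions at 0.05. The other tools were scipy 1.17.1, numpy 2.4.6, matplotlib 3.10.9 and pandas 2.3.3 under Python 3.11.15. Both tests were tested on simulated data. Gene positions and promoters are from RefSeq GRCm38.p6, and no genome sequence was used. The 8 genes and the 2 lists were chosen with earlier results of these data known. Named regions were each gene's strongest, any that passed a test, and those near a gene end in at least 2 libraries. The series' text calls replicates biological.

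Same-numbered DEX and NI libraries deviated together over the regions compared (correlations 0.517, 0.540 and 0.678), so those numbers pair by the rule used. Differently numbered DEX 2 and NI 1 (0.486) and DEX 1 and NI 2 (0.374) did so too, and replicate 3 of both groups had high mitochondrial signal, so pairing and that split cannot be told apart. TNFDEX and DEX numbers do not (0.372, −0.367 and 0.575). The alternatives are given in the closing section.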

Additional observations from a re-analysis of the deposited data

How the results depend on the processing

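The number of regions passing the Dex test, 10, was 10, 9 and 8 with centres merged within 100 bp, with normalized tag counts of at least 10 and with 8-fold over the input. It was 5 with the 2524 strongest peaks per library, with regions called in at least 2 libraries, with no filter on libraries, and stratified by the other treatment. It was also 5 stratified by mitochondrial level and with centres merged within 300 bp, both chosen after seeing the data, and 5 to 7 with any 1 of the 11 libraries left out. The 5 regions at Hnf4a and Prox1 kept their call in all of these, except that 1 of each lost it among the strongest peaks. The calls at Foxa1, Foxa2, Foxa3, Nr5a2 and Nr1h4 were lost in most of them.

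Counts per group changed with the flank and rule. The 17 regions in TNFDEX became 7 within 10 kb, 11 if called in every library, 35 in any library, 7 among the strongest peaks, and 11 to 16 with 1 library left out (11 without TNFDEX replicate 1, 12 without TNFDEX replicate 3). The 14 in DEX became 6, 9, 23, 6 and 10 to 11. The 1 in TNF became 2 within 100 kb, 17 in any library, 0 among the strongest and 0 at a normalized tag count of at least 10. The 1 in NI became 0 within 10 kb, 3 within 100 kb, 0 in every library, 11 in any, 0 among the strongest, and 0 to 1 with 1 library left out. TNFDEX minus TNF gave 1 region of 3 tested, at Foxa2, without TNF replicate 2 (range 0 to 1), where 16.5% of all regions passed as higher and 13.1% as lower. With the replicate block, 0 of the 8 regions passed for TNFDEX minus DEX, as without it, and the other signal comparisons had no region at these genes to test with or without the block. For TNFDEX minus DEX the sign turned at Hnf4a 15.9 kb upstream without DEX replicate 3 (−0.02), and at 12.9 kb upstream without TNFDEX replicate 1 (0.06) and with library totals (0.04). At the strongest Hnf4a region it turned without TNFDEX replicate 1 (0.11), without DEX replicate 3 (0.18) and with library totals (0.12). At Nr5a2 it turned under 6 of 13 alternatives, to −0.24 at most, with mitochondrial level as a term. Library totals also gave 0.40 at Hnf4a 15.9 kb upstream and 0.38 at the downstream Prox1 region. None of these values passed. Weak peaks held few tags, which limits what an absent call shows.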
